A study of Mus musculus with 47 samples.

Results

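The liver expression of 40 genes of glutathione conjugation and antioxidant defence was examined across strain, sex and diet. The set held 23 glutathione transferases, taken as every gene in the deposited table with a cytosolic, kappa or microsomal transferase symbol (Gsta, Gstk, Gstm, Gsto, Gstp, Gstt, Gstz and Mgst, pseudogenes left out), and 17 named partners, namely Gclc, Gclm, Gss, Gsr, Gpx1, Gpx4, Cat, Sod1, Sod2, Prdx1, Txnrd1, Srxn1, Nqo1, Hmox1, Ephx1, Nfe2l2 and Keap1. They are 40 of 20320 genes in the table, and all 40 passed the filter on low counts that 16650 genes passed. The series holds 47 liver libraries from wild-type mice with no treatment other than diet. C57BL/6J, the strain of the mouse reference genome, CAST/EiJ, an inbred strain derived from wild mice of another subspecies, and NZO/HlLtJ, an inbred obese strain, were each sampled as females and males. Animals of each strain and sex ate feed with 10% fat plus fiber or feed with 44% fat plus fiber, described as high in fat and sugar, from week 6 of age, and livers were taken in week 15. Each of the 12 combinations had 4 libraries, with 3 for CAST/EiJ males on 10% fat. The labels number no replicates, so the replicate numbers below follow the order of the identifiers in the titles within each combination. Nothing in the labels ties each library to its own animal, and the p-values below therefore rest on the spread between libraries, which may be technical.

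Glutathione transferases join glutathione to reactive compounds such as drug metabolites, plant toxins and products of lipid peroxidation, and the liver makes them in large amounts. Many of them, with the enzymes that build and recycle glutathione, are switched on by the transcription factor Nrf2 (gene Nfe2l2), which the adaptor Keap1 holds at low levels until electrophiles or oxidants modify it. Some are also set by growth hormone and sex steroids, so that male and female mouse livers differ in them.

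Total counts ran from 21.6 M to 47.8 M per library, and values are given as CPM, the usual depth-scaled counts, with TMM factors applied to the library sizes. Xist, Uty and Kdm5d matched the sex label in all 47 libraries, and the 7 tested hepatocyte markers were high in every group, with the lowest summed levels, 47768 to 61475 CPM, in CAST/EiJ males on 44% fat. Of 14 listed pancreatic acinar markers 7 were tested, and 5 libraries had at least 20 CPM of one of them, Cpa1. They were C57BL/6J female 44% fat replicates 1 and 2, C57BL/6J male 10% fat replicates 2 and 3, and CAST/EiJ female 44% fat replicate 2. In C57BL/6J female 44% fat replicate 1, 20 of the 40 genes were the highest of their group of 4 and 13 the lowest. There female-biased liver genes lay -1.92 from the group mean on the log2 scale, male-biased genes -0.68 and pericentral hepatocyte markers -0.91. Cell cycle genes lay 2.17 from it and stellate cell and fibroblast markers 1.24. Results that rest on this library are given with and without it. The identifiers in the titles form 3 consecutive runs (A, B and C, with 16, 16 and 15 libraries), which were also analysed singly. The liver is a mixture of cells, and in such bulk RNA fewer cells of a type and less RNA per cell cannot be told apart.

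Compared per kilobase of exon, the catalase gene Cat (median 1025 CPM per kb over 47 libraries), the membrane transferase Mgst1 (932), the peroxidase Gpx1 (846) and Gstm1 (414) had the highest levels of the 40. Gstp1, a pi class transferase that also binds signalling kinases, was seventh at a median of 198 CPM per kb, with a range from 53.6 to 2468 CPM per kb. The lowest were Gsto2 (0.104 CPM per kb) and Mgst2 (0.0206 CPM per kb). Both of the lowest were near 0 in 2 strains and measurable in CAST/EiJ.

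**Figure D1:**
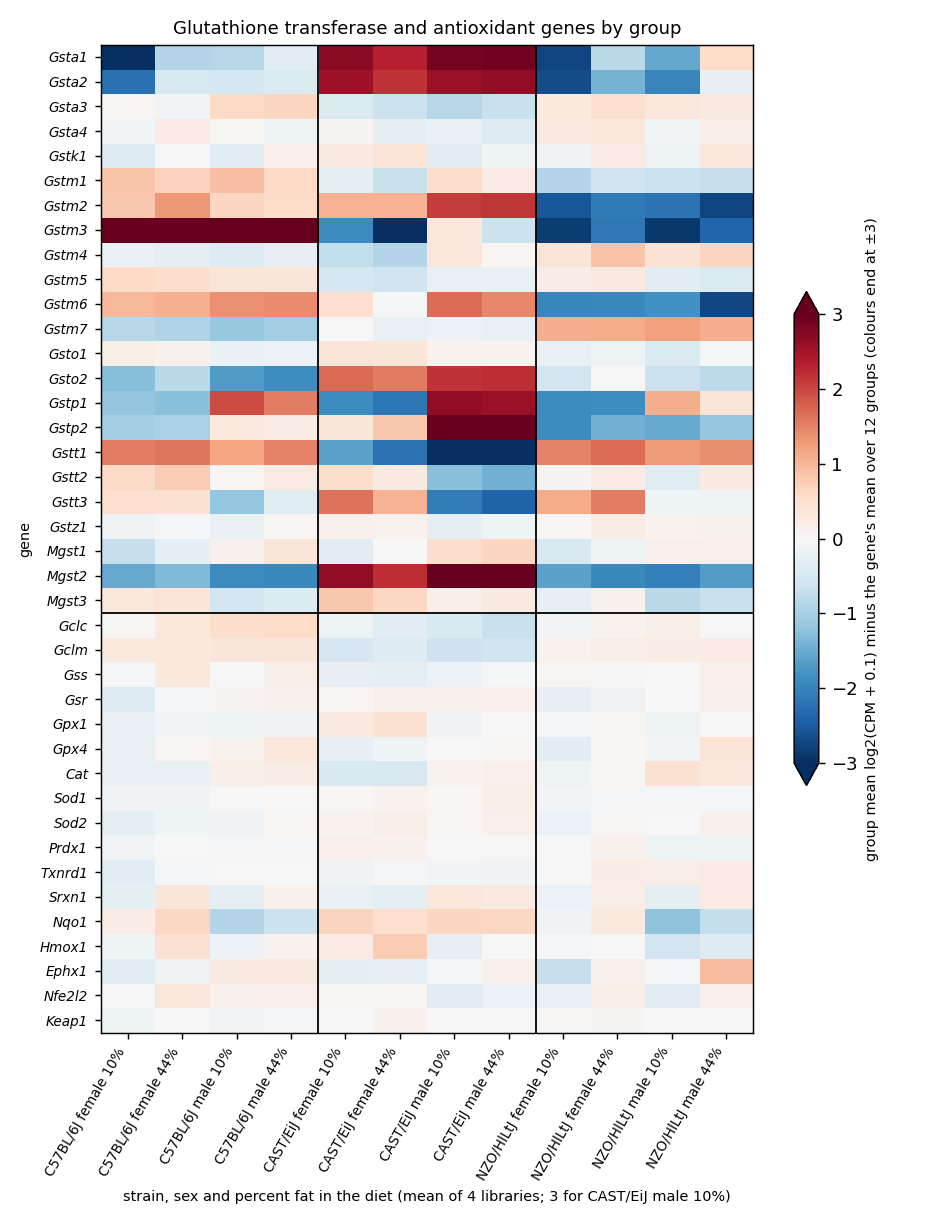
Mean log2(CPM + 0.1) of each gene (rows) in each of the 12 groups (columns), minus the gene's mean over the groups; red is above and blue below that mean, colours end at 3 log2 units, and the horizontal line parts the 23 transferases from the 17 partners. The transferase rows carry the deepest colours, with Gstm3 high in C57BL/6J, Mgst2 and Gsto2 high in CAST/EiJ and Gstp1 high in males of all 3 strains.

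Most of the transferases lie in clusters of near relatives, so their places and sequences bear on how well reads separate them. The 7 mu class genes lie within 149 kb of chromosome 3 in the deposited GRCm38 annotation, from Gstm5 (chr3:107895821-107898686) to Gstm4 (chr3:108040408-108044894). Gstt3, Gstt1 and Gstt2 lie within 60.8 kb of chromosome 10, Gstp1 (chr19:4035407-4037921) and Gstp2 (chr19:4040285-4042236) within 6.83 kb of chromosome 19, and Gsta4, Gsta1 and Gsta2 within 164 kb of chromosome 9. Of all stretches of 100 bases in the annotated transcripts, 80.6% of those of Gsta1 (chr9:78230656-78242684) and 28.4% of those of Gsta2 (chr9:78331018-78355788) also occur in another gene, mostly in Gm3776, Gm10639 or each other. The share was 46.9% for Gstp2, 25.1% for Gstp1, 25.2% for Gpx4 (with a pseudogene copy), 13.8% for Gstm3, 12.8% for Sod2, 10.8% for Gstt3 and 5.86% for Gstm1, and 26 of the 40 genes had none. Counts of Gstp1, Gstp2, Gstm1 and Gstm3 were not whole in any library, and those of Gsta1 and Gsta2 were not whole in 97.9% of libraries. Estimated counts take such values where a tool divides reads between features. Levels of Gsta1, Gsta2, Gstp1, Gstp2 and Gstm3 are reported as uncertain for this reason.

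The start regions of the pi and alpha pairs are shown because both pairs differ widely by sex or strain in the results below. RefSeq (GRCm38.p6) gave windows from 250 bases before to 50 bases after the start for 35 of the 40 genes, 49 windows in all. The 250 bases before the start were 88.1% identical between Gstp1 and Gstp2, and 77.0% between Gsta1 and Gsta2. The antioxidant response element, the DNA site of Nrf2, has the core TGACNNNGC. That core, sought on both strands, was found in 10 of the 49 windows (20.4%) against 12.4% of all 32851 windows, and the relative TGAGNNNGC in 8 (16.3%) against 17.6%. The form TGAGTCAGC of the latter, which contains the letters TGAGTCA of the AP-1 site and was picked out after the matches were seen, stood in the windows of Gstp1, Gstp2 and Srxn1 and in 0.414% of all windows. A match describes letters and is not evidence of binding. The RefSeq starts of Gstp1, Gstp2, Gsta1 and Gsta2 lie inside the deposited gene spans given above.

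In the last 100 bases before the start of the pi genes, 5′ to 3′ on the strand of the gene, capitals mark TGAGNNNGC on either strand (Gstp1 at chr19:4037913-4038012, minus strand, Gstp2 at chr19:4042222-4042321, minus strand). Gstp1 holds a second match on the other strand next to its start, which Gstp2 lacks.
Gstp1: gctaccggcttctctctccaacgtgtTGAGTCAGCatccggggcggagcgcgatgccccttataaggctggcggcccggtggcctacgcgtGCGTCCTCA
Gstp2: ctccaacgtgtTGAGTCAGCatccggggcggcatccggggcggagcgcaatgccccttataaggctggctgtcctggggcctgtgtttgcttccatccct
The same capitals in Srxn1, which repairs over-oxidised peroxiredoxins, mark the one further TGAGTCAGC among these genes (chr2:152105453-152105512, plus strand).
Srxn1: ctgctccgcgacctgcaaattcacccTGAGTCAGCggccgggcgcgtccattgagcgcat
In the last 80 bases before the start of Gsta1 (chr9:78230589-78230668, plus strand) and Gsta2 (chr9:78347146-78347225, minus strand), capitals mark the bases that differ between them or have no partner in their alignment.
Gsta1: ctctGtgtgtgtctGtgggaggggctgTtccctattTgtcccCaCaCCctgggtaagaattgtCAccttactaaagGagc
Gsta2: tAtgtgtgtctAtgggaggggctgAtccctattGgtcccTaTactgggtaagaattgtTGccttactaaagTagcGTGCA

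Most of these genes differed between strains, at shares near or moderately above those of all tested genes. For several transferases the strains did not overlap. A gene is called here at a Benjamini-Hochberg adjusted p under 0.05 over all 16650 genes in edgeR's quasi-likelihood test, and fold changes are on the log2 scale with their standard error (SE). CAST/EiJ against C57BL/6J called 31 of 40 genes, 18 higher and 13 lower, where 67.9% of all tested genes were called (32.6% higher and 35.3% lower). NZO/HlLtJ against C57BL/6J called 23 (9 higher, 14 lower; 49.1% of all genes, 25.5% higher and 23.6% lower), and NZO/HlLtJ against CAST/EiJ called 34 (14 higher, 20 lower; 68.1% of all genes, 35.3% higher and 32.8% lower). In that order 77.5%, 57.5% and 85% of the 40 genes were called. The median log2 difference over the 40 genes was 0.02, -0.04 and -0.06 in the same order, against -0.02, -0.0016 and 0.01 over all tested genes. The 3 comparisons share their libraries in pairs. They are averages over both sexes, and some of the genes were called in females or in males alone. The submitters' notes name the build GRCm38, which is C57BL/6J sequence, and how far sequence differences of the other strains moved these values was not tested.

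The mu class cluster held neighbours that differed among strains in opposite directions. Gstm3 was highest in C57BL/6J, at 21.8 to 253 CPM (median 32.9), against 0.154 to 7.001 CPM (median 0.929) in CAST/EiJ and 0.151 to 1.04 CPM (median 0.249) in NZO/HlLtJ. All 16 C57BL/6J libraries lay above all 31 others, and the log2 differences from C57BL/6J were -5.51 in CAST/EiJ (SE 0.35, adjusted p = 3.00e-16) and -6.88 in NZO/HlLtJ (SE 0.37, adjusted p = 4.45e-18). Gstm3 had 6 to 236 counts per CAST/EiJ library and 4 to 41 per NZO/HlLtJ library, so the size of these differences is uncertain. Gstm2 ran from 3.83 to 11.02 CPM (median 5.21) in NZO/HlLtJ and from 26.1 to 84.6 CPM (median 52.03) in C57BL/6J, and Gstm6 from 2.14 to 7.95 CPM (median 6.10) and from 42.03 to 79.3 CPM (median 56.6). For both genes every NZO/HlLtJ library lay below every C57BL/6J and CAST/EiJ library, with log2 differences of -3.24 (adjusted p = 9.93e-23) for Gstm2 and -3.33 (adjusted p = 3.24e-27) for Gstm6 against C57BL/6J.

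Gstm7 went the other way, with 149 to 219 CPM (median 174) in NZO/HlLtJ, 58.6 to 98.3 CPM (median 73.5) in CAST/EiJ and 31.7 to 49.9 CPM (median 41.6) in C57BL/6J. The 3 strains did not overlap for Gstm7, with NZO/HlLtJ 4.36-fold above C57BL/6J (2.12, SE 0.06, adjusted p = 2.93e-28). Gstm4 was also higher in NZO/HlLtJ, at 65.9 to 123 CPM (median 80.8) against 30.4 to 60.6 CPM (median 48.7) in C57BL/6J (0.86, SE 0.10, adjusted p = 5.24e-09), while CAST/EiJ and C57BL/6J did not pass the test for it over both sexes (-0.01, SE 0.10, adjusted p = 0.954). Within a sex, Gstm4 was called lower in CAST/EiJ than in C57BL/6J females (medians 33.0 and 48.7 CPM). In males it was called higher in CAST/EiJ (57.8 and 48.2 CPM). Gstm1, the most abundant mu class gene per kilobase, ran from 785 to 1794 CPM (median 977) in C57BL/6J, 361 to 1400.5 CPM (median 610.4) in CAST/EiJ and 283 to 517 CPM (median 386) in NZO/HlLtJ. Every NZO/HlLtJ library lay below every C57BL/6J library for Gstm1 (-1.47, SE 0.10, adjusted p = 1.28e-15), and CAST/EiJ overlapped both and was lower than C57BL/6J (-0.80, SE 0.10, adjusted p = 7.48e-09). Gstm5, the least abundant with Gstm3, was lower than C57BL/6J in both CAST/EiJ (-0.86, SE 0.10, adjusted p = 3.46e-10) and NZO/HlLtJ (-0.53, SE 0.09, adjusted p = 9.30e-06). Its ranges were 1.91 to 4.57 CPM (median 2.86), 2.44 to 6.13 CPM (median 3.61) and 3.77 to 7.35 CPM (median 5.30) in CAST/EiJ, NZO/HlLtJ and C57BL/6J. Within a sex, the NZO/HlLtJ difference of Gstm5 from C57BL/6J was called in males alone.

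**Figure D2:**
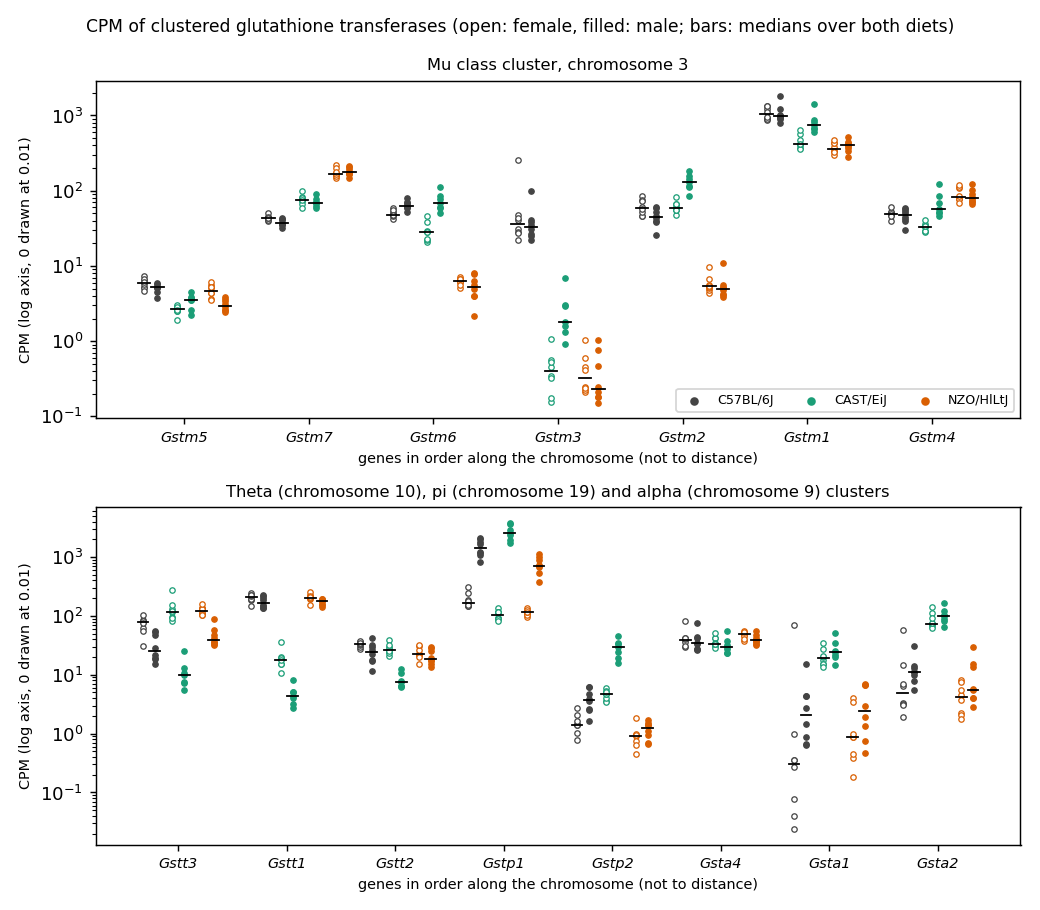
CPM on a log axis for each library (open points female, filled points male) of the clustered transferases, in chromosome order; grey is C57BL/6J, green CAST/EiJ and orange NZO/HlLtJ, and bars are medians of a strain and sex over both diets. Gstm2 and Gstm6 sit low and Gstm7 high in NZO/HlLtJ, Gstm3 sits high in C57BL/6J, and Gstt1 sits low in CAST/EiJ.

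Gstt1, a theta class enzyme that acts on small halogenated compounds, was low in CAST/EiJ. It ran from 2.70 to 35.4 CPM (median 10.6) there, against 134 to 246 CPM (median 195) in C57BL/6J and 140.4 to 253 CPM (median 191) in NZO/HlLtJ. The CAST/EiJ range ended far below both others (-4.33, SE 0.13, adjusted p = 6.47e-28), and C57BL/6J and NZO/HlLtJ differed by 0.00 (SE 0.10, adjusted p = 0.992). Its neighbour Gstt2 was lower in CAST/EiJ by a smaller step (-0.91, SE 0.13, adjusted p = 1.57e-07), while Gstt3 did not pass there over both sexes (-0.28, SE 0.19, adjusted p = 0.196). Within a sex, Gstt2 was called lower in CAST/EiJ than in C57BL/6J males (medians 7.49 and 24.2 CPM) and not in females (26.5 and 33.9 CPM). Gstt3 was called higher in CAST/EiJ females (118 and 77.3 CPM) and lower in CAST/EiJ males (9.95 and 25.1 CPM).

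Mgst2 and Gsto2 were measurable mainly in CAST/EiJ. Mgst2, a microsomal enzyme that also makes leukotriene C4, ran from 2.14 to 19.7 CPM (median 4.16) in CAST/EiJ, against 0 to 0.265 CPM (median 0.0674) in C57BL/6J and 0 to 0.180 CPM (median 0.0572) in NZO/HlLtJ. The last 2 ranges stand for 58 counts over 16 libraries and 40 over 16, against 4249 over 15 in CAST/EiJ, and the log2 difference between CAST/EiJ and C57BL/6J was 6.27, SE 0.20, adjusted p = 1.13e-27. Gsto2, an omega class enzyme that reduces dehydroascorbate, ran from 0.554 to 2.50 CPM (median 1.46) in CAST/EiJ, 0.0259 to 0.374 CPM (median 0.241) in NZO/HlLtJ and 0 to 0.518 CPM (median 0.0497) in C57BL/6J, with 4.75, SE 0.30, adjusted p = 1.41e-17 for CAST/EiJ against C57BL/6J. All 15 CAST/EiJ libraries were above the other 32 for both genes. Gstp2 was also higher there, at 3.43 to 45.4 CPM (median 6.01) against 0.770 to 6.20 CPM (median 2.29) in C57BL/6J and 0.448 to 1.87 CPM (median 0.953) in NZO/HlLtJ (2.21, SE 0.18, adjusted p = 9.30e-14 against C57BL/6J), with overlap with C57BL/6J and none with NZO/HlLtJ. Gsto1, next to Gsto2 and far more abundant, differed little by comparison (0.25, SE 0.05, adjusted p = 1.11e-05).

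Gsta1 and Gsta2, alpha class enzymes of the liver that many inducers raise, were high in CAST/EiJ. Gsta2 ran from 61.6 to 169 CPM (median 87.2) in CAST/EiJ, 1.92 to 58.2 CPM (median 8.95) in C57BL/6J and 1.75 to 29.8 CPM (median 4.99) in NZO/HlLtJ, and Gsta1 from 13.7 to 51.2 CPM (median 21.00), 0.0236 to 71.3 CPM (median 0.778) and 0.181 to 6.92 CPM (median 1.15). For Gsta2 every CAST/EiJ library lay above all 32 others. For Gsta1 every CAST/EiJ library lay above NZO/HlLtJ, and 2 C57BL/6J libraries reached the CAST/EiJ range, namely female 44% fat replicate 1 with 71.3 CPM and male 10% fat replicate 2 with 15.1 CPM. Against C57BL/6J, CAST/EiJ was higher in Gsta1 (3.32, SE 0.57, adjusted p = 4.04e-06) and Gsta2 (3.16, SE 0.30, adjusted p = 1.21e-11), and without the first of those libraries the Gsta1 difference was 4.59, adjusted p = 1.34e-11. NZO/HlLtJ was lower than C57BL/6J in Gsta2 (-0.89, SE 0.29, adjusted p = 0.0112), a call made within a sex in females alone. It ended without C57BL/6J female 44% fat replicate 1 (-0.56, adjusted p = 0.0593). For Gsta1 the NZO/HlLtJ value changed sign without that library, from -0.50 (adjusted p = 0.583) to 0.77, adjusted p = 0.181. Gsta3, the abundant alpha class gene on chromosome 1, was lower in CAST/EiJ than in C57BL/6J (-0.92, SE 0.10, adjusted p = 4.67e-10) and NZO/HlLtJ, with 291 to 933 CPM (median 520.0), 645 to 1422 CPM (median 999.6) and 812 to 1287 CPM (median 1042) in CAST/EiJ, C57BL/6J and NZO/HlLtJ. Gsta4, which clears the lipid peroxidation product 4-hydroxynonenal, passed only between NZO/HlLtJ and CAST/EiJ (0.34, SE 0.14, adjusted p = 0.0277), and did not pass once either replicate 2 or replicate 3 of CAST/EiJ males on 10% fat was left out (adjusted p up to 0.0744).

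Among the partners, the glutathione synthesis enzymes set CAST/EiJ apart. Gclm, the regulatory subunit of glutamate-cysteine ligase, ran from 85.3 to 116 CPM (median 93.3) in CAST/EiJ, against 147 to 207 CPM (median 172) in C57BL/6J and 131 to 168 CPM (median 157) in NZO/HlLtJ. Every CAST/EiJ library lay below all 32 others (-0.86, SE 0.04, adjusted p = 9.82e-21 against C57BL/6J). The catalytic subunit Gclc ran from 169.9 to 298 CPM (median 209.8), 240.1 to 603 CPM (median 343) and 204 to 349 CPM (median 301) in the same order and overlapped among strains, with -0.77, SE 0.09, adjusted p = 1.18e-09 for CAST/EiJ and -0.33, SE 0.09, adjusted p = 0.00221 for NZO/HlLtJ against C57BL/6J. Gss, the second synthesis step, was lower in CAST/EiJ as well (-0.32, SE 0.07, adjusted p = 1.79e-04), whereas Gsr, which regenerates reduced glutathione, was slightly higher (0.18, SE 0.04, adjusted p = 8.41e-05). Within a sex, Gss and Gsr were called between CAST/EiJ and C57BL/6J in females alone, and Gclc between NZO/HlLtJ and C57BL/6J in males alone.

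Redox enzymes and the Nrf2 and Keap1 genes differed as follows. Txnrd1, the cytosolic thioredoxin reductase, was higher in NZO/HlLtJ, at 122 to 183 CPM (median 151) against 94.96 to 169 CPM (median 136) in C57BL/6J with overlap (0.25, SE 0.06, adjusted p = 1.89e-04). Nqo1, a quinone reductase much used as a readout of Nrf2, was higher in CAST/EiJ than in C57BL/6J (0.78, SE 0.12, adjusted p = 6.55e-07), with 6.56 to 11.2 CPM (median 8.20) and 2.38 to 11.8 CPM (median 4.86), and NZO/HlLtJ ran from 1.76 to 7.95 CPM (median 4.35). Within a sex, the CAST/EiJ excess of Nqo1 was called in males (medians 8.46 and 2.94 CPM) and not in females (7.97 and 7.21 CPM). Nfe2l2, the Nrf2 gene, ran from 45.5 to 68.6 CPM (median 60.7), 48.9 to 123 CPM (median 68.9) and 35.3 to 100.2 CPM (median 59.7) in CAST/EiJ, C57BL/6J and NZO/HlLtJ, and was lower in CAST/EiJ than in C57BL/6J (-0.28, SE 0.10, adjusted p = 0.0130). That call ended without the 5 libraries with acinar transcripts (-0.21, adjusted p = 0.0820). Within a sex, Nfe2l2 was called between these strains in males alone. Keap1 ran from 38.1 to 47.99 CPM (median 44.8) in C57BL/6J, 42.3 to 55.5 CPM (median 46.9) in CAST/EiJ and 39.6 to 54.1 CPM (median 46.98) in NZO/HlLtJ, and its differences from C57BL/6J of 0.09 (adjusted p = 0.0279) and 0.09 (adjusted p = 0.0409) were the smallest called. They lost the threshold in 5 of 31 and 17 of 32 refits that each left out 1 library. Srxn1 passed in none of the 3 strain comparisons and Hmox1, which breaks down haem, passed in both with NZO/HlLtJ (-0.50, SE 0.14, adjusted p = 0.00271 against CAST/EiJ). Its call against C57BL/6J (-0.37, SE 0.14, adjusted p = 0.0281) ended without C57BL/6J female 44% fat replicate 1 (-0.24, adjusted p = 0.0856). So did the CAST/EiJ calls of Gpx4 (adjusted p = 0.0730) and Sod1 (adjusted p = 0.0710) against C57BL/6J. The Gpx4 and Sod1 calls were also lost without other single libraries. Examples were CAST/EiJ male 10% fat replicate 2 for Gpx4 (adjusted p = 0.0722) and replicate 1 of that group for Sod1 (adjusted p = 0.0676).

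Enzymes that clear peroxide and superoxide differed by small amounts. Among the superoxide dismutases, Sod2 was higher in CAST/EiJ than in C57BL/6J (0.23, SE 0.04, adjusted p = 1.70e-05) and NZO/HlLtJ did not pass against C57BL/6J (0.10, SE 0.04, adjusted p = 0.0562). Gpx1 (0.28, SE 0.06, adjusted p = 1.24e-04) and the peroxiredoxin Prdx1 (0.12, SE 0.04, adjusted p = 0.00683) were slightly higher in CAST/EiJ than in C57BL/6J, and Cat slightly lower (-0.17, SE 0.05, adjusted p = 0.00128), although Cat had the other sign in identifier run A. Gstm6, also called (-0.30, SE 0.09, adjusted p = 0.00490), had the other sign in run A as well, as did Cat in run B for NZO/HlLtJ against C57BL/6J (0.17, SE 0.04, adjusted p = 0.00179). Gstz1, which acts in tyrosine breakdown, was higher in NZO/HlLtJ than in C57BL/6J (0.20, SE 0.05, adjusted p = 5.02e-04). Within a sex, the differences of CAST/EiJ from C57BL/6J in Sod2, Gpx1, Prdx1, Cat and Gstm6 were called in females alone. Median Gpx1 in CAST/EiJ and C57BL/6J was 1631 and 1154 CPM in females, and 1219 and 1150 CPM in males.

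Pi, theta, mu and microsomal transferases differed by sex, with the highest number of calls in CAST/EiJ. Female against male libraries over both diets called 15 of 40 genes in C57BL/6J (5 higher in females, 10 lower), where 16.8% of all genes were called (8.7% higher and 8.1% lower). In CAST/EiJ 22 were called (10 higher, 12 lower; 30.3% of all genes, 14.2% higher and 16.1% lower) and in NZO/HlLtJ 11 (5 higher, 6 lower; 17.2% of all genes, 9.31% higher and 7.94% lower). The median over the 40 genes was 0.01, -0.04 and 0.01 in the order C57BL/6J, CAST/EiJ, NZO/HlLtJ, against 0.01, 0.01 and 0.02 over all tested genes. Each called gene kept its sign within every identifier run that could be fitted.

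Over all libraries Gstp1 had the largest sex difference of the 40 in each strain. Without C57BL/6J female 44% fat replicate 1, the C57BL/6J difference of Gsta1 (-3.81, adjusted p = 1.25e-04) was larger than that of Gstp1 (-3.13, adjusted p = 1.21e-15). Gsta1 counts in C57BL/6J libraries went down to 1, so the size of its difference is uncertain. In C57BL/6J females Gstp1 ran from 145 to 307 CPM (median 166) and in males from 836 to 2092 CPM (median 1429). In CAST/EiJ the ranges were 82.9 to 136 CPM (median 104) and 1736 to 3821 CPM (median 2579.9), and in NZO/HlLtJ 97.5 to 138 CPM (median 116) and 370.1 to 1104 CPM (median 717). The sexes did not overlap in any strain, and males were 7.78-fold higher in C57BL/6J (-2.96, SE 0.19, adjusted p = 4.88e-15), 25.98-fold in CAST/EiJ (-4.70, SE 0.21, adjusted p = 3.53e-20) and 6.35-fold in NZO/HlLtJ (-2.67, SE 0.19, adjusted p = 8.73e-14). The highest female value, 307 CPM, was in C57BL/6J female 44% fat replicate 1, and the other 7 C57BL/6J females lay at or below 242 CPM. Within identifier runs A, B and C the C57BL/6J difference was -2.65, -2.73 and -3.35, and the CAST/EiJ difference -5.31, -4.54 and -4.21. In NZO/HlLtJ, where runs B and C confound sex with diet, run A gave -2.89. The female over male log2 difference of CAST/EiJ minus that of C57BL/6J was -1.74 (SE 0.26, adjusted p = 7.26e-06). That of NZO/HlLtJ minus that of CAST/EiJ was 2.03 (adjusted p = 3.67e-07), so the male excess was larger in CAST/EiJ than in either other strain.

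Gstp2, the neighbour with the like start region, was far less abundant and did not follow Gstp1 in every strain. Males exceeded females in C57BL/6J, with 1.67 to 6.20 CPM (median 3.67) against 0.770 to 2.67 CPM (median 1.42) (-1.33, SE 0.26, adjusted p = 2.04e-04), and in CAST/EiJ, with 15.7 to 45.4 CPM (median 29.6) against 3.43 to 6.01 CPM (median 4.72) (-2.64, SE 0.25, adjusted p = 9.02e-11). The sexes were apart in CAST/EiJ and overlapped in C57BL/6J. In NZO/HlLtJ, Gstp2 ran from 0.448 to 1.87 CPM (median 0.923) in females and 0.673 to 1.68 CPM (median 1.25) in males and did not pass (-0.36, SE 0.29, adjusted p = 0.431). How far its counts hold reads of Gstp1, with which it shares 41.6% of its 100-base stretches, was not tested.

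The theta genes were female-biased where they differed. Gstt3 was higher in females of all 3 strains, with 81.2 to 279 CPM (median 118) against 5.45 to 25.6 CPM (median 9.95) in CAST/EiJ, 30.7 to 103 CPM (median 77.3) against 15.1 to 54.4 CPM (median 25.1) in C57BL/6J, and 102 to 162 CPM (median 122) against 31.8 to 88.4 CPM (median 39.3) in NZO/HlLtJ. The sexes overlapped in C57BL/6J alone, where female 44% fat replicate 1 was the lowest female at 30.7 CPM. The differences were 3.50 (adjusted p = 4.35e-11), 1.23 (adjusted p = 0.00122) and 1.40 (adjusted p = 2.70e-04). Gstt1 and Gstt2 passed in CAST/EiJ, where Gstt1 ran from 10.6 to 35.4 CPM (median 18.02) in females and 2.70 to 8.28 CPM (median 4.35) in males, and Gstt2 from 20.9 to 38.4 CPM (median 26.5) and 6.29 to 12.6 CPM (median 7.49). Both pairs were free of overlap (Gstt1 1.98, SE 0.17, adjusted p = 5.63e-12, Gstt2 1.74, SE 0.20, adjusted p = 8.52e-09), and the sex difference exceeded that of C57BL/6J by 1.75 for Gstt1 (adjusted p = 3.91e-07), 1.31 for Gstt2 (adjusted p = 6.50e-04) and 2.27 for Gstt3 (adjusted p = 1.03e-04).

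**Figure D3:**
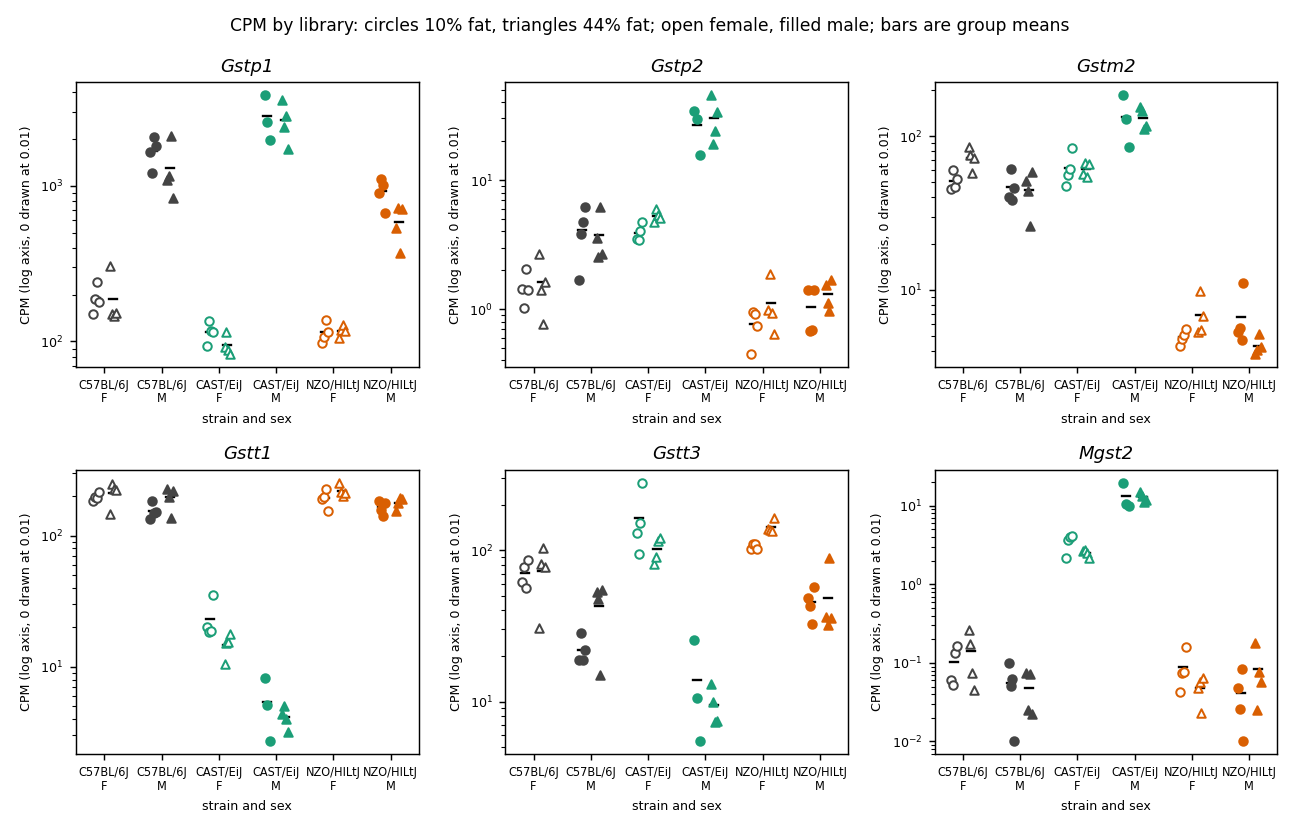
CPM on a log axis of 6 transferases in every library, by strain and sex (open points female, filled male; circles 10% fat, triangles 44% fat; bars are means of the 12 groups; a value of 0 is drawn at 0.01). Gstp1 separates the sexes in all 3 strains, Gstp2, Gstm2, Gstt1 and Mgst2 separate them in CAST/EiJ, and Mgst2 is near 0 outside CAST/EiJ.

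Mu class genes were male-biased in CAST/EiJ, with 6 of 7 called lower in females, where 16.1% of all genes were. Gstm2 ran from 47.5 to 83.3 CPM (median 59.02) in CAST/EiJ females and 84.8 to 184 CPM (median 129) in males (-1.11, SE 0.17, adjusted p = 2.75e-06), and Gstm6 from 20.6 to 45.6 CPM (median 28.3) and 50.2 to 112 CPM (median 67.7) (-1.35, SE 0.13, adjusted p = 1.69e-10). Gstm3 (-2.68, adjusted p = 3.11e-04), Gstm4 (-1.08, adjusted p = 4.84e-07) and Gstm1 (-0.89, adjusted p = 8.13e-06) went the same way. The sexes did not overlap for Gstm2, Gstm4 and Gstm6, and the highest of these 3 genes in males was in replicate 1 on 10% fat, a library in which 36 of the 40 genes lay above their group mean. Gstm5 (-0.37, adjusted p = 0.0454) lost the threshold in 10 of 15 refits, and Gstm7 did not pass (0.09, SE 0.09, adjusted p = 0.482). In C57BL/6J only Gstm6 of these 7 passed (-0.38, SE 0.13, adjusted p = 0.0380), with the threshold lost in 10 of 16 refits, and in NZO/HlLtJ only Gstm5 did, higher in females (0.63, SE 0.14, adjusted p = 7.45e-04), at 3.58 to 6.13 CPM (median 4.70) against 2.44 to 3.85 CPM (median 2.95) with overlap. The sex difference of CAST/EiJ departed from that of C57BL/6J for Gstm1 to Gstm6, by -0.98 for Gstm6 (adjusted p = 2.66e-04) and -1.52 for Gstm2 (adjusted p = 1.33e-05).

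Of the microsomal enzymes, Mgst1 was higher in males of every strain and Mgst3 in females. Mgst1 ran from 1057 to 1787 CPM (median 1233) in C57BL/6J females and 1877 to 2647 CPM (median 2261) in males (-0.74, SE 0.07, adjusted p = 1.02e-10), without overlap. Its CAST/EiJ ranges were 1389.9 to 2021 CPM (median 1672) and 2338 to 3043 CPM (median 2939) (-0.75, SE 0.07, adjusted p = 7.74e-11), also apart, and its NZO/HlLtJ ranges 1294 to 1860.0 CPM (median 1510.4) and 1774 to 2407 CPM (median 2113) (-0.48, SE 0.07, adjusted p = 2.65e-06), which overlapped. Mgst3 was 0.79 higher in C57BL/6J females (adjusted p = 1.75e-04), with 14.9 to 22.2 CPM (median 17.4) against 5.86 to 14.9 CPM (median 10.5), and 0.67 higher in NZO/HlLtJ females (adjusted p = 0.00162), with 10.04 to 18.6 CPM (median 13.1) against 5.89 to 13.1 CPM (median 8.23). The sexes were apart for Mgst3 in C57BL/6J and overlapped in NZO/HlLtJ. In CAST/EiJ Mgst3 had 19.4 to 25.8 CPM (median 22.4) in females and 13.4 to 20.3 CPM (median 14.7) in males (0.48, SE 0.16, adjusted p = 0.0169), a call that ended without male 10% fat replicate 2 (0.43, adjusted p = 0.0597). Mgst2 was male-biased in CAST/EiJ, the strain that expressed it, with 9.84 to 19.7 CPM (median 11.8) in males and 2.14 to 4.16 CPM (median 2.72) in females and no overlap (-2.14, SE 0.20, adjusted p = 2.78e-11). Gstk1, a kappa class enzyme of mitochondria and peroxisomes, was higher in CAST/EiJ females, with 95.03 to 117 CPM (median 104) against 55.8 to 82.7 CPM (median 72.4) and no overlap (0.56, SE 0.09, adjusted p = 3.23e-06). Gsto1 was higher in C57BL/6J females, with 75.5 to 91.4 CPM (median 80.3) against 52.9 to 78.96 CPM (median 62.1) (0.32, SE 0.07, adjusted p = 4.04e-04), with overlap.

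Of the alpha class, Gsta3 was lower in C57BL/6J females, with 645 to 972 CPM (median 826) against 1027 to 1422 CPM (median 1269) and no overlap (-0.62, SE 0.14, adjusted p = 0.00185). That call ended without the 5 libraries with acinar transcripts (-0.49, adjusted p = 0.0733). The values of Gsta1 and Gsta2 in C57BL/6J depended on 1 library. Over all C57BL/6J libraries neither passed by sex (-1.27, SE 0.95, adjusted p = 0.408 for Gsta1 and -0.58, SE 0.40, adjusted p = 0.365 for Gsta2). Gsta1 values on 44% fat were 71.3, 0.350, 0.994 and 0.270 CPM in females, the first from the library that stands apart, and 2.76, 4.30, 0.889 and 4.35 CPM in males. Without it, males were higher in both, with -3.81, adjusted p = 1.25e-04 for Gsta1 and -1.25, adjusted p = 0.0129 for Gsta2. Gstm3 in the same group was 253, 22.2, 28.1 and 27.8 CPM, so that its C57BL/6J sex value, which did not pass, changed sign from 0.62 to -0.21 without that library.

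Catalase and Nqo1 led the partners by sex. Cat was lower in females of all 3 strains, with no overlap in any, at 1671 to 2143 CPM (median 1888) against 2629 to 3084 CPM (median 2885) in CAST/EiJ (-0.59, SE 0.07, adjusted p = 2.06e-09), 1764 to 2626 CPM (median 2293) against 2791 to 3231 CPM (median 2982) in C57BL/6J and 2159.9 to 2828 CPM (median 2608) against 2990.3 to 3834 CPM (median 3361) in NZO/HlLtJ. The last 2 differences were -0.40 (adjusted p = 6.83e-06) and -0.42 (adjusted p = 3.57e-06). Nqo1 was higher in females of C57BL/6J, with 5.09 to 11.8 CPM (median 7.21) against 2.38 to 4.62 CPM (median 2.94) and no overlap (1.20, SE 0.18, adjusted p = 2.19e-06), and of NZO/HlLtJ, with 4.02 to 7.95 CPM (median 5.62) against 1.76 to 6.33 CPM (median 2.46) (0.99, SE 0.18, adjusted p = 8.24e-05), with overlap. CAST/EiJ had 6.56 to 10.9 CPM (median 7.97) in females and 6.96 to 11.2 CPM (median 8.46) in males (-0.03, SE 0.18, adjusted p = 0.916), and its sex difference minus that of C57BL/6J was -1.23 (adjusted p = 5.92e-04). Gsr was lower in females of C57BL/6J (-0.32, SE 0.05, adjusted p = 2.27e-05) and NZO/HlLtJ (-0.25, SE 0.05, adjusted p = 8.84e-04). In NZO/HlLtJ the Gsr ranges of 49.6 to 57.4 CPM (median 52.3) and 57.7 to 72.4 CPM (median 62.04) did not overlap. Ephx1, the microsomal epoxide hydrolase, was lower in NZO/HlLtJ females (-0.73, SE 0.17, adjusted p = 0.00238), and in C57BL/6J it passed only without the library that stands apart (-0.48, SE 0.17, adjusted p = 0.0507 with it, -0.59, adjusted p = 0.0172 without it). Gclc was lower in C57BL/6J females (-0.36, SE 0.13, adjusted p = 0.0439), a call lost in 11 of 16 refits, and in neither other strain did it pass. Sod2 was lower in C57BL/6J females (-0.18, SE 0.06, adjusted p = 0.0384). This call, like that of Gstm6, ended without C57BL/6J female 44% fat replicate 1 (-0.15, adjusted p = 0.108 for Sod2 and -0.36, adjusted p = 0.0684 for Gstm6). The Sod2 call was also lost without several other single libraries. Among them were C57BL/6J male 10% fat replicate 2 (adjusted p = 0.0861) and male 44% fat replicate 1 (adjusted p = 0.0794). Nfe2l2 and Keap1 passed by sex in no strain, with differences of 0.07, 0.28 and 0.06 for Nfe2l2 in the order C57BL/6J, CAST/EiJ, NZO/HlLtJ (adjusted p = 0.783, 0.145 and 0.820).

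**Figure D4:**
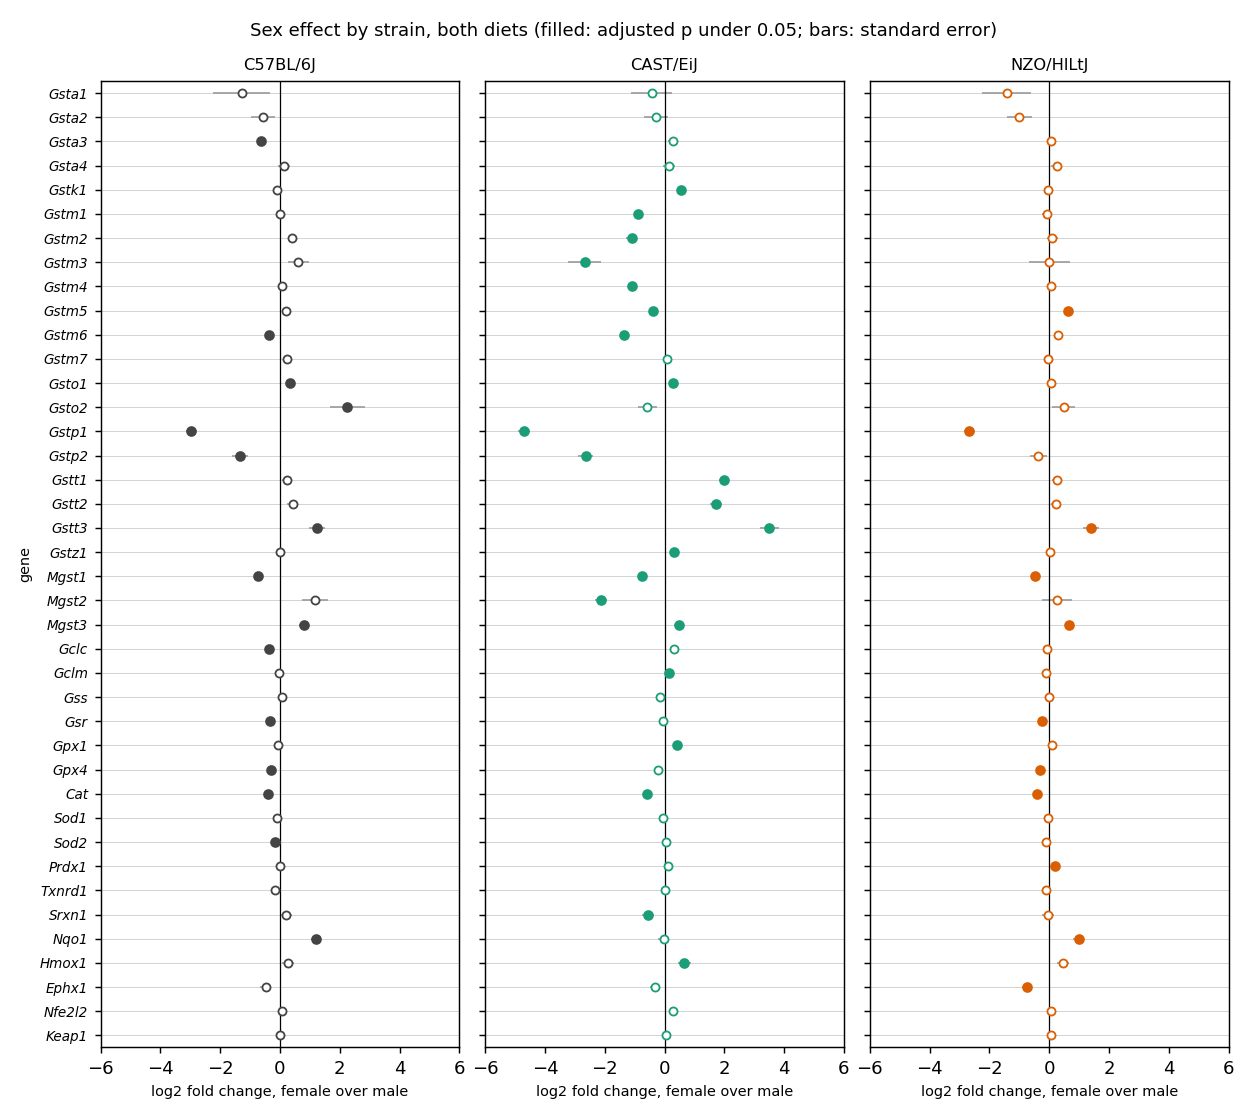
Log2 fold change of females over males for each of the 40 genes in each strain, with bars of 1 standard error; filled points passed an adjusted p of 0.05. Gstp1 lies far to the male side and Gstt3 to the female side in all 3 panels, and Gstm1 to Gstm6 lie to the male side in the CAST/EiJ panel.

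A joint test of whether the sex difference differed among the strains called 20 of the 40 genes, where 13.6% of all genes were called. The 20 were the same genes that the pairwise test called between CAST/EiJ and C57BL/6J (10.5% of all genes). Between NZO/HlLtJ and CAST/EiJ 16 were called (13.6% of all genes). Between NZO/HlLtJ and C57BL/6J 0 were called (0.571% of all genes), with 9 of 40 at an unadjusted p under 0.05 in edgeR. Here and below, percentages of all genes count adjusted calls. Shares of all genes at an unadjusted p under 0.05 are not given.

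Few of these genes were called by diet. On 44% against 10% fat, over both sexes, 6 of 40 genes rose and 0 fell in NZO/HlLtJ, where 5.64% of all genes were called (3.5% higher and 2.14% lower). In C57BL/6J 2 rose and 0 fell (0.991% of all genes, 0.823% higher and 0.168% lower), and in CAST/EiJ edgeR called 0 (0.895% of all genes, 0.498% higher and 0.396% lower; 6 of 40 at an unadjusted p under 0.05, and 0 by DESeq2). Medians over the 40 genes were 0.15, 0.13 and -0.02 in NZO/HlLtJ, C57BL/6J and CAST/EiJ, against 0.00, 0.01 and 0.00 over all tested genes. A joint test of whether the diet effect differed among strains called 0 of the 40 in edgeR (0.048% of all genes) and 1 in DESeq2. At an unadjusted p under 0.05 edgeR had 14 of 40. The share of all genes at that threshold is not given, so the 14 cannot be weighed against it here. The diet response of these genes was not shown to differ between strains.

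Within NZO/HlLtJ males, edgeR called 4 genes higher on 44% fat (Ephx1, Gpx4, Gstk1 and Gsto1) and 1 lower (Gstm6), where 2.68% of all genes were called (1.56% higher and 1.12% lower). Gstm6 values were 7.75, 7.95, 5.60 and 6.24 CPM on 10% fat and 3.96, 2.14, 4.94 and 3.93 CPM on 44% fat in males, without overlap (-0.89, SE 0.20, adjusted p = 0.0108), and 6.59, 7.15, 6.09 and 5.05 CPM and 6.72, 6.10, 5.54 and 6.77 CPM in females, with overlap. The count in males fell to 0 without male 10% fat replicate 2, to 1 without male 10% fat replicate 3 or male 44% fat replicate 4, to 2 without male 10% fat replicate 1 and to 3 without male 44% fat replicate 1. In NZO/HlLtJ females edgeR called 0 of the 40 (0.486% of all genes; 9 of 40 at an unadjusted p under 0.05), and 2 without the 5 libraries with acinar transcripts. In C57BL/6J females the 1 call was Gsta1 (0.102% of all genes), at 7.15, SE 1.46, adjusted p = 0.0280. The value was 2.06, adjusted p = 0.828 without the library that stands apart. Females on 10% fat had only 0.0236 to 0.352 CPM of Gsta1. The number called in C57BL/6J females was 0 without any 1 of the 4 females on 10% fat, 4 without female 44% fat replicate 2 and 3 without female 44% fat replicate 4. In C57BL/6J males (0.042% of all genes), CAST/EiJ females (0.198%) and CAST/EiJ males (0.012%) edgeR called 0, with 4, 4 and 0 of 40 at an unadjusted p under 0.05, and 1 in C57BL/6J males without male 44% fat replicate 3.

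Gstk1 rose on 44% fat in 2 strains. In NZO/HlLtJ it ran from 66.3 to 84.2 CPM (median 74.5) on 10% fat and 86.7 to 117 CPM (median 97.2) on 44% fat, and in C57BL/6J from 57.1 to 82.01 CPM (median 62.7) and 69.9 to 106 CPM (median 87.9). The diets did not overlap in NZO/HlLtJ (0.42, SE 0.08, adjusted p = 0.00140) and overlapped in C57BL/6J (0.43, SE 0.08, adjusted p = 0.00559), and it passed in every refit that left out 1 library of the strain. CAST/EiJ had 55.8 to 103 CPM (median 95.03) and 69.2 to 117 CPM (median 91.7) and did not pass (0.15, SE 0.09, adjusted p = 0.504). Within identifier runs A, B and C the C57BL/6J difference was 0.60, 0.37 and 0.38, and in NZO/HlLtJ run A gave 0.46.

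Ephx1 rose on 44% fat in NZO/HlLtJ over both sexes. Female values were 216, 219, 186 and 188 CPM on 10% fat and 265, 416, 387 and 392 CPM on 44% fat, and male values 302, 216, 317 and 464 CPM and 582, 487, 639 and 795 CPM. Within each sex all 44% fat libraries were above all 10% fat libraries, and the strain's log2 fold change was 0.90 (adjusted p = 0.00119), with 0.85 in run A. In C57BL/6J the value was 0.04, SE 0.17, adjusted p = 0.959, and it ran from 0.84 in run A to -0.57 in run B.

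The remaining NZO/HlLtJ calls were Gpx4, Gsta2, Nfe2l2 and Gsto1. Gpx4, the peroxidase that clears lipid hydroperoxides in membranes, ran from 103 to 169.6 CPM (median 118) on 10% fat and 136 to 224 CPM (median 161) on 44% fat (0.44, SE 0.10, adjusted p = 0.00364). Gsta2 ran from 1.75 to 5.70 CPM (median 3.42) and 3.68 to 29.8 CPM (median 7.85), with the highest value, 29.8 CPM, in male replicate 1 (1.58, SE 0.43, adjusted p = 0.0213), and without that library its adjusted p was 0.0609. Both genes overlapped between diets. Nfe2l2 ran from 35.3 to 64.6 CPM (median 51.7) and 47.5 to 100.2 CPM (median 72.8) (0.47, SE 0.14, adjusted p = 0.0368), and Gsto1 rose by 0.23 (adjusted p = 0.0337). These 2 calls were the least stable, lost in 10 and 11 of 16 refits that each left out 1 library, with adjusted p up to 0.121 for Nfe2l2 and 0.0848 for Gsto1.

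Gsta1, the neighbour of Gsta2, and Nqo1 did not pass in NZO/HlLtJ (2.17, SE 0.83, adjusted p = 0.126 and 0.53, SE 0.18, adjusted p = 0.0712). Gsta1 and Srxn1 passed there once C57BL/6J female 44% fat replicate 1 was left out of the shared fit (Gsta1 2.17, adjusted p = 0.0158, Srxn1 0.46, adjusted p = 0.0275). Keap1 differed by 0.01 (adjusted p = 0.925). Gstp1 had lower values on 44% fat in all 3 strains but passed in none (-0.19, -0.18 and -0.31 in the order C57BL/6J, CAST/EiJ, NZO/HlLtJ, adjusted p = 0.737, 0.786 and 0.351).

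In C57BL/6J the second call was Mgst1, which ran from 1057 to 2279 CPM (median 1564) on 10% fat and 1193 to 2647 CPM (median 1945) on 44% fat and rose by 0.33 (SE 0.07, adjusted p = 0.0139). Female values were 1149, 1057, 1252 and 1213 CPM on 10% fat and 1193, 1670.1, 1787 and 1583 CPM on 44% fat, and male values 2279, 1883, 1877 and 2242 CPM and 2647, 2560.0, 2102 and 2458 CPM. The diets overlapped within each sex, and the lowest female on 44% fat was replicate 1. Both C57BL/6J calls ended in a fit to that strain alone, which called 0 of the 40 and 4 of all genes. Gsta1 had the largest C57BL/6J value, 3.31 (adjusted p = 0.0662), which was 0.77, adjusted p = 0.758 without the library that stands apart. In CAST/EiJ the largest diet differences among the 40 genes were -1.29 for Gstm3 (adjusted p = 0.358), -0.62 for Gstt3 (adjusted p = 0.363) and -0.51 for Gstt1 (adjusted p = 0.130), none of which passed.

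**Figure D5:**
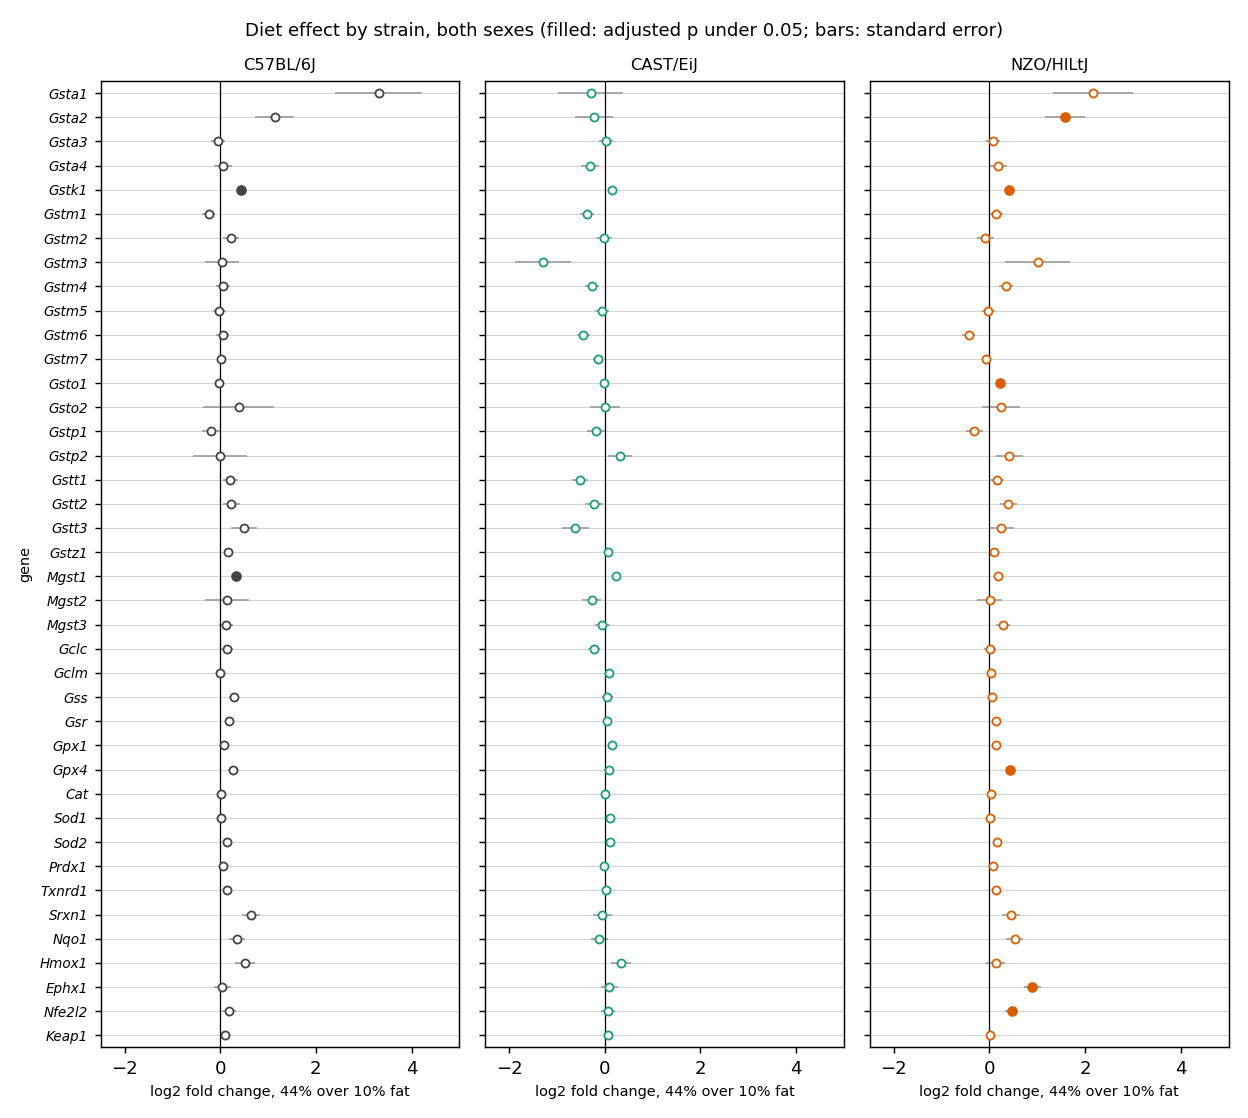
Log2 fold change of 44% over 10% fat for each of the 40 genes in each strain, with bars of 1 standard error; filled points passed an adjusted p of 0.05. Filled points are Gstk1 and Mgst1 in C57BL/6J and Ephx1, Gsta2, Gpx4, Gstk1, Nfe2l2 and Gsto1 in NZO/HlLtJ, and the long bars of Gsta1, Gsta2 and Gstm3 show their spread between libraries.

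Averaged over the 3 strains, 44% fat called 10 of the 40 genes, 9 higher and 1 lower, where 9.42% of all genes were called (5.52% higher and 3.9% lower). Gstk1 (0.33, SE 0.05, adjusted p = 1.47e-05), Mgst1 (0.24, SE 0.04, adjusted p = 1.34e-04) and Gpx4 (0.26, SE 0.06, adjusted p = 0.00196) had the smallest p, followed by the mitochondrial superoxide dismutase Sod2 (0.14, SE 0.04, adjusted p = 0.00730). Gsr, Gsta1, Gsta2, Ephx1 and Srxn1 were also higher. The Gsta1 call (1.73, SE 0.48, adjusted p = 0.0175) ended without C57BL/6J female 44% fat replicate 1 (0.88, adjusted p = 0.108). Gsta2 (0.83, SE 0.24, adjusted p = 0.0212) and Srxn1 (0.35, SE 0.11, adjusted p = 0.0400) passed without it, at 0.60, adjusted p = 0.0453 and 0.23, adjusted p = 0.0482. The Srxn1 call was lost in 20 of 47 refits that each left out 1 library, with adjusted p up to 0.0744, and that of Ephx1 in 1 of 47, the refit that lacked male 10% fat replicate 2 of CAST/EiJ (adjusted p = 0.0524). Gstm6 alone was lower (-0.28, SE 0.08, adjusted p = 0.0174). The diet effect differed between the sexes for 0 of the 40 genes in edgeR (0.012% of all genes; 3 of 40 at an unadjusted p under 0.05, and 0 called by DESeq2).

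Genes of the same pathways outside the 40 were read from lists that hold none of them. Among 26 tested other Nrf2 targets, 4 rose and 0 fell on 44% fat in NZO/HlLtJ, where 3.5% higher and 2.14% lower of all genes were called (median 0.24 against 0.00 over all genes), among them the nucleotidase Entpd5 (0.63, adjusted p = 9.85e-04) and the ferritin heavy chain Fth1 (0.41, adjusted p = 0.00120). In C57BL/6J 1 rose, Entpd5 (0.49, adjusted p = 0.0326), where 0.823% of all genes did, and in CAST/EiJ 3 fell, where 0.396% did, among them Ces1g (-0.87, adjusted p = 0.0143). By sex, the carbonyl reductase Cbr1 was higher in CAST/EiJ females (3.73, adjusted p = 2.31e-16) and the aldehyde oxidase Aox1 lower in females of C57BL/6J (-0.82, adjusted p = 7.29e-06), CAST/EiJ (-2.02, adjusted p = 3.58e-15) and NZO/HlLtJ (-0.95, adjusted p = 5.22e-07). Of that list 6 were higher and 12 lower in CAST/EiJ than in C57BL/6J, where 32.6% higher and 35.3% lower of all genes were called, so the number called either way was near the share of all genes. The conjugate exporter Abcc3 was at -2.83, adjusted p = 3.91e-20.

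Among 26 tested other genes of glutathione metabolism, 1, 1 and 3 rose and 0 fell on 44% fat in the order C57BL/6J, CAST/EiJ, NZO/HlLtJ, where 0.823%, 0.498% and 3.5% of all genes rose. Esd, an S-formylglutathione hydrolase, rose in C57BL/6J (0.21, adjusted p = 0.0476) and NZO/HlLtJ (0.24, adjusted p = 0.00417). Glo1, which clears methylglyoxal, was lower in females of C57BL/6J (-0.43, adjusted p = 1.01e-05), CAST/EiJ (-0.47, adjusted p = 2.21e-06) and NZO/HlLtJ (-0.36, adjusted p = 2.06e-04). Mat1a, which makes S-adenosylmethionine in hepatocytes, was higher in CAST/EiJ females (1.59, adjusted p = 1.88e-11). Of 14 tested other peroxiredoxin and thioredoxin genes 3 rose and 1 fell on 44% fat in NZO/HlLtJ (of all genes 3.5% higher and 2.14% lower), and 10 were higher and 1 lower in CAST/EiJ females (of all genes 14.2% higher and 16.1% lower). Of 12 tested Nrf2 partner genes the small Maf factor Mafg alone rose on 44% fat in NZO/HlLtJ (0.42, adjusted p = 0.00751), where 3.5% of all genes rose. Bach1, a repressor at the same DNA sites, was lower in females of NZO/HlLtJ (-0.58, adjusted p = 0.00438). Of 14 tested genes of the xenobiotic receptors and their P450 targets, Cyp2b10, a target of the constitutive androstane receptor, alone rose on 44% fat in NZO/HlLtJ (1.98, adjusted p = 0.0365), against the same 3.5% of all genes.

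Markers of hepatocytes and of other cell types moved with some of these contrasts. The summed hepatocyte markers, of which albumin is the most abundant, ran from 60841 to 75689 CPM in CAST/EiJ males on 10% fat and 47768 to 61475 CPM on 44% fat, below all CAST/EiJ females, at 100313 to 121250.0 and 83376 to 105849 CPM. By gene 3 of the 7 were called higher and 1 lower in CAST/EiJ females (median 0.21), where 14.2% higher and 16.1% lower of all genes were called. In NZO/HlLtJ males they summed to 66278 to 84192 CPM on 44% fat and 92863 to 113434 CPM on 10% fat, also without overlap. Over both sexes 3 of the 7 fell on 44% fat in NZO/HlLtJ (median -0.36), where 2.14% of all genes fell. All 6 tested Kupffer cell and macrophage markers were lower in CAST/EiJ than in C57BL/6J (median -1.22) and higher in females than in males of CAST/EiJ (0.85) and NZO/HlLtJ (0.64), where 35.3%, 14.2% and 9.31% of all genes were called in those directions, with summed levels of 132 to 249 CPM in CAST/EiJ females and 84.2 to 119 CPM in CAST/EiJ males on 10% fat. Of 5 tested adipocyte markers 2 rose on 44% fat in NZO/HlLtJ and 1 in each of the other strains, and 0 of 6 cholangiocyte markers did in any. Of all genes 3.5%, 0.823% and 0.498% rose in NZO/HlLtJ, C57BL/6J and CAST/EiJ. Of 12 pericentral hepatocyte markers, cells near the central vein where several of these transferases are made, 2 rose and 0 fell on 44% fat in NZO/HlLtJ (of all genes 3.5% higher and 2.14% lower). By sex 3 were higher and 2 lower in CAST/EiJ females (of all genes 14.2% higher and 16.1% lower). The part of these cell markers in the results above was not tested.

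The 40 genes also differed in their spread between replicates. The pooled within-group SD on the log2 scale was 1.46 for Gsta1, 0.82 for Gstm3 and 0.80 for Gsta2, and 0.09 for Prdx1 and 0.10 for Keap1, with a median of 0.29 against 0.27 over all tested genes. Precision was lowest for these alpha and mu genes. In C57BL/6J the 2 libraries with the most Gsta1, female 44% fat replicate 1 and male 10% fat replicate 2, had cell cycle genes 2.17 and 1.34 and acinar markers 3.12 and 3.92 above their group means on the log2 scale. The other 2 C57BL/6J libraries with acinar transcripts, female 44% fat replicate 2 and male 10% fat replicate 3, had 0.350 and 1.46 CPM of Gsta1. Female 44% fat replicates 3 and 4 had 0.994 and 0.270 CPM, and male 10% fat replicates 1 and 4 had 0.646 and 0.667 CPM. Of these, female 44% fat replicate 4 had 12.1 CPM of Cpa1, below the limit of 20 CPM. The part of acinar or cell cycle transcripts in the Gsta1 values was not tested.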

How the data were processed

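Liver polyadenylated RNA was sequenced as paired-end reads, per the labels' protocols. The deposited tables hold expected counts (the authors' estimated counts of reads) per gene and library, of which 20.3% were not whole at a tolerance of 1e-06, and the authors' variance-stabilized values on a log2 scale. Per the submitters' processing notes GRCm38 was the genome build and DESeq2 (no version) one of the tools. The aligner, counting tool, strand setting and annotation release were not given in the sources used here, so a gene and an overlapping antisense gene cannot be told apart. How reads of the other strains, or reads shared by relatives, were handled is not given there either. Other deposited columns held gene identifiers, symbols and positions.

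Expected counts were rounded and fitted in R 4.3.3 with edgeR 4.0.16 (filterByExpr over 12 groups, TMM, robust glmQLFit, 35 residual degrees of freedom). All 47 libraries and 16650 genes shared 1 fit, and adjusted p-values are Benjamini-Hochberg over those genes. SE is the log2 fold change divided by the square root of F. The test was checked on simulated counts with known changes. Alternatives were DESeq2 1.42.0, RLE scaling, no filter or a stricter one (1 CPM in 4 libraries), limma 3.58.1 on the deposited log2 values, each strain alone, each library left out, the identifier run as covariate or singly, and the 5 libraries with acinar transcripts left out. The lowest chi-square per gene between replicates was 19.4, so no pair looked like 1 library deposited more than once. Start regions are from RefSeq GRCm38.p6, and exon lengths and shared stretches of 100 bases from GENCODE M21, where 29 of 40 genes had the deposited positions.

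The members and gene lists were chosen with earlier results of these data known. All 40 members could be named. Values by library were given for the called members with the 4 smallest p in each direction and for 10 further genes, and up to 4 called genes with the smallest p were named from other lists.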

Additional observations from a re-analysis of the deposited data

Results flagged for a closer look

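In 10 of 110 groups of 4 libraries tested, over 10 genes, 1 library lay apart from the other 3 by more of the group's range than the 95% critical value of Dixon's test. Chance alone gives about 1 in 20 such groups if values are normally distributed. The values used were CPM, and whether that rate holds for them was not tested. Gstp1 was at 307 CPM in C57BL/6J female 44% fat replicate 1 (others 145 to 152). Gsta1 was at 0.352 CPM in C57BL/6J female 10% fat replicate 3 (others 0.0236 to 0.0785), 71.3 CPM in C57BL/6J female 44% fat replicate 1 (others 0.270 to 0.994), 15.1 CPM in C57BL/6J male 10% fat replicate 2 (others 0.646 to 1.46) and 1.94 CPM in NZO/HlLtJ male 44% fat replicate 2 (others 6.66 to 6.92). Gstm3 was at 253 CPM in C57BL/6J female 44% fat replicate 1 (others 22.2 to 28.1), 100.4 CPM in C57BL/6J male 10% fat replicate 2 (others 30.6 to 40.97) and 0.457 CPM in NZO/HlLtJ female 10% fat replicate 3 (others 0.213 to 0.248). Ephx1 was at 221 CPM in CAST/EiJ female 10% fat replicate 1 (others 284 to 294). Nfe2l2 was at 83.2 CPM in C57BL/6J female 10% fat replicate 2 (others 55.6 to 60.2). C57BL/6J female 44% fat replicate 1 was the library apart for Gstp1, Gsta1 and Gstm3, and C57BL/6J male 10% fat replicate 2 for Gsta1 and Gstm3.

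The female against male difference itself differed among the 3 strains for 20 genes in edgeR's joint test, with the adjusted p given for each. Of the transferases these were Gstt1 (1.20e-07), Gstm6 (1.58e-07), Gstp1 (3.42e-07), Mgst2 (1.29e-06), Gstm2 (1.97e-05), Gstm4 (6.68e-05), Gstt3 (7.57e-05), Gstp2 (1.19e-04), Gstt2 (1.25e-04), Gstk1 (1.29e-04), Gstm5 (0.00115), Gstm3 (0.00191), Gstm1 (0.00213), Gsta3 (0.00420), Gsto2 (0.00673) and Gstz1 (0.0257). Of the partners they were Nqo1 (7.45e-04), Gpx1 (0.0233), Gclc (0.0259) and Gsr (0.0330). The calls for Gsr, Gstz1, Gclc and Gpx1 were lost in 9, 3, 2 and 1 of 47 refits that each left out 1 library.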

How the results depend on the processing

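Diet averaged over strains and diet within each sex are left for the end of this section. For the other comparisons, counts of the 40 genes called stayed within 1.5 times the reported ones under RLE scaling, both filters and limma on the deposited values. The same held with the identifier run as a covariate and without the 5 libraries with acinar transcripts. Cat and Gstm6 had the other sign in run A for CAST/EiJ against C57BL/6J, and Cat in run B for NZO/HlLtJ against C57BL/6J. The uncalled values of Gstm3 by sex in C57BL/6J and of Gsta1 for NZO/HlLtJ against C57BL/6J changed sign without C57BL/6J female 44% fat replicate 1. DESeq2 called 4 genes for diet in C57BL/6J against 2, and 1 against 0 for the diet effect differing among strains. A fit to C57BL/6J alone called 0 for diet. Single identifier runs, with 15 or 16 libraries each, mostly called fewer genes. Counts over all genes are not given here for DESeq2 or the single runs. For diet in C57BL/6J runs A, B and C called 1, 1 and 0, the one in run B being lower on 44% fat, and for diet in NZO/HlLtJ run A called 0. For CAST/EiJ against C57BL/6J they called 18, 18 and 20, for NZO/HlLtJ against C57BL/6J 8, 6 and 9, and for NZO/HlLtJ against CAST/EiJ 22, 22 and 21. For sex in C57BL/6J they called 4, 9 and 9, for sex in CAST/EiJ 11, 23 and 8, and for sex in NZO/HlLtJ 5 in run A. NZO/HlLtJ gave no value for diet or sex in runs B and C, where the 2 factors are confounded. Leaving out 1 library at a time gave 2 to 4 called genes for diet in C57BL/6J, 0 to 2 in CAST/EiJ and 4 to 8 in NZO/HlLtJ. Over all tested genes the same refits called 56 to 369, 30 to 417 and 532 to 1178. Such refits gave 29 to 31, 20 to 25 and 33 to 34 for the strain comparisons in the order above. Over all tested genes they called 11145 to 11341, 7926 to 8192 and 11157 to 11322. For sex they gave 12 to 17 in C57BL/6J, 18 to 22 in CAST/EiJ and 10 to 11 in NZO/HlLtJ. The ranges over all tested genes were 2274 to 2970, 4220 to 5074 and 2390 to 2906. For the sex effect differing among strains they gave 16 to 22, and 1816 to 2533 over all tested genes. Diet averaged over strains and diet within each sex were refitted only without single libraries and without the 5 libraries with acinar transcripts, a choice made after seeing the data. Averaged over strains, 8 to 13 genes were called without 1 library, and 1299 to 1823 over all tested genes. Within a sex the counts were 0 to 4 in C57BL/6J females, 0 to 1 in C57BL/6J males, 0 in CAST/EiJ females and males and in NZO/HlLtJ females, and 0 to 7 in NZO/HlLtJ males. Over all tested genes they were 7 to 116 in C57BL/6J females and 0 to 136 in males. In CAST/EiJ they were 6 to 163 and 0 to 8, and in NZO/HlLtJ 17 to 172 and 103 to 583, females first. Without the 5 libraries NZO/HlLtJ females had 2 called. No paired analysis was possible because the labels carry no replicate numbers. The cause of these changes was not tested beyond the smaller number of libraries. Low counts limit Mgst2 and Gsto2 outside CAST/EiJ. They also limit Gstm3 in NZO/HlLtJ and CAST/EiJ (down to 4 and 6 counts per library) and Gsta1 in C57BL/6J and NZO/HlLtJ (down to 1 and 9). Shared sequence limits Gsta1, Gsta2, Gstp1, Gstp2 and Gstm3.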
